A study of Bos taurus with 12 samples.

Results

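The flanks of CpG islands were examined in bull sperm DNA, among loci compared between bulls whose daughters had low fertility and bulls whose daughters had high fertility. The loci are the autosomal entries of the authors' deposited tables whose closest annotated feature was a CpG island, at a listed distance of 1 to 4000 bp. They are 993 of the 17730 listed CpG sites, at 407 islands, and 1565 of the 7290 listed tiles, which are windows of 500 bp, at 445 islands. Island shores are conventionally the flanks of an island up to 2000 bp away, and shelves the flanks beyond that up to 4000 bp. The coordinates showed that the listed distance also took loci inside islands, so the set is called island-edge loci here and is divided below by where each locus lies.

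Whole-genome enzymatic methylation sequencing, which converts unmethylated cytosines with enzymes, was run on sperm DNA of 12 bulls, 6 labelled low daughter fertility and 6 labelled high daughter fertility. The labels give no age, breed, batch or pairing and no treatment. The values are the authors' comparison of the groups on the cattle build ARS-UCD1.2, with a difference in percentage points, a p-value and a q-value for each locus, and which group was subtracted is not stated. Methylation levels and read depth of single samples were not analysed here, so no spread between bulls stands beside a difference, the sperm label was not checked against marker loci, and no set of loci was tested against another.

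A CpG island is a stretch of DNA dense in CpG dinucleotides, often at a gene promoter. In mammals most islands are free of methylation in germ cells and in somatic cells, while the DNA between them is largely methylated, sperm DNA included. The flanks of an island form the passage between these states, and differences between tissues are often found there rather than inside the island.

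Many of the island-edge loci did not lie in a shore or a shelf. In both tables the listed distance was the distance from the first base of the locus to the nearest edge of the island, for all 993 sites and all 1565 tiles, whether that base lay outside or inside. By coordinates, 238 sites (24.0%) lay inside their island, 484 in a shore and 271 in a shelf. Of the tiles, 347 lay wholly inside an island and 761 ran across an edge, so 1108 (70.8%) touched an island. Outside were 355 tiles in a shore and 102 in a shelf. The islands are those of the authors' annotation, with a median length of 831 bp for the sites and 921 bp for the tiles. Their observed to expected CpG ratio, also deposited by the authors, had a median of 0.860 in both tables.

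Few sites of the island-edge set differed by a large amount. Those that did were mostly listed with a negative difference, as were those of all autosomes. Here a call means a q below 0.05 together with 10 or more points in either direction. Calls by the authors' deposited table numbered 33 of the 993 sites (3.32%), against 4.48% of all autosomal sites listed. Of these, 26 were negative and 7 positive, where 3.07% of autosomal sites were called negative and 1.41% positive. Negative calls were thus the majority among all autosomal calls too, 415 of 605. With 1 call per island, 13 of 20 in the set were negative. At least 20 points were reached by 9 called sites, 6 negative and 3 positive, against a background of 1.97%. A further 38 sites differed by at least 10 points but had a q of 0.05 or more, such as a shore site at position 625017 of chromosome 1 with -19.0 points (q = 0.101) by the authors' deposited table. With no limit on size, 53 sites (5.34%) had q below 0.05, against 6.06% on autosomes.

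Taken over the set as a whole, the differences were centred close to 0. The median over the 993 sites was -0.06 points, with quartiles of -2.91 and 1.41 points, against a median of -0.71 over all autosomal sites. The median size of a difference, sign ignored, was 2.25 points, against 2.77 points on autosomes. Of the sites with a difference other than 0, 56.5% were negative, against 57.9% of those on autosomes, and 105 sites were listed at exactly 0.

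The calls were spread unevenly over the inside, the shore and the shelf. Inside islands 12 of 238 sites (5.04%) were called, all negative, and 10 of these 12 lay in 1 island of chromosome 21. In shores 10 of 484 sites (2.07%) were called, 6 negative and 4 positive, each at a different island. In shelves 11 of 271 sites (4.06%) were called, 8 negative and 3 positive, and 4 of these 11 lay beside another island of chromosome 21. Autosomal sites whose closest feature was an island more than 4000 bp away were called in 5.10% of cases, and those closest to another kind of feature in 4.44%. These shares rest on few calls and on neighbouring sites, and were not tested.

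**Figure D1:**
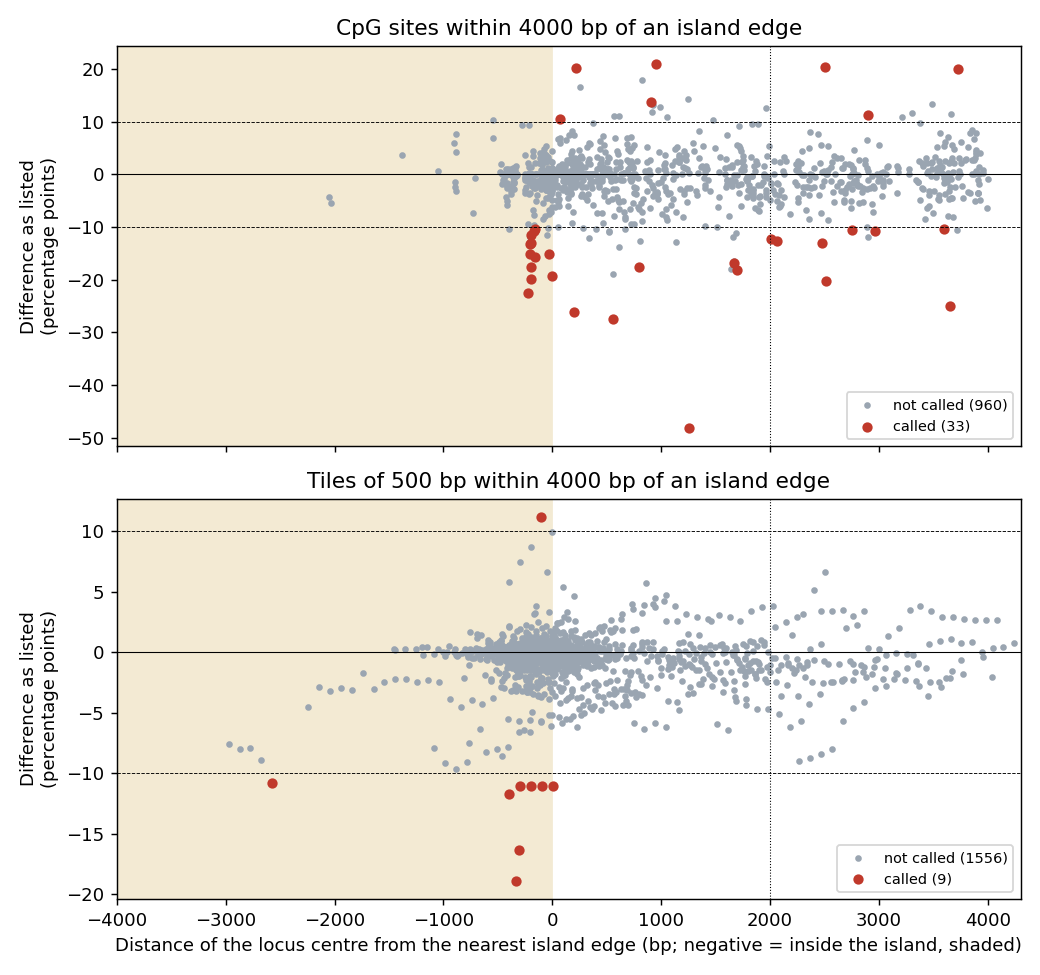
Authors' difference in percentage points (vertical axis) against the distance in bp of the locus centre from the nearest island edge (horizontal axis, negative and shaded inside the island), for 993 sites (top) and 1565 tiles (bottom). Red points are called, the dashed lines stand at 10 points in either direction and the dotted line at 2000 bp, where shores end. Called sites lie on both sides of the edge, while the 9 called tiles have their centre inside or at most a few bases outside the island.

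The spread of site differences was narrower near and inside islands than farther out. The median size was 1.58 points inside, 1.41 points in the first 500 bp outside, 3.50 points beyond that up to 1000 bp and 2.86 points between 1000 and 2000 bp. It was 2.41 points between 2000 and 3000 bp and 2.55 points between 3000 and 4000 bp. Differences of exactly 0 were listed at 39 of 238 sites inside and 50 of 207 in the first 500 bp outside. In the intervals farther out, in order, they numbered 3 of 113, 2 of 164, 5 of 136 and 6 of 135. The smaller sizes near and inside islands thus include many zeros. Called sites numbered 3 of 207, 4 of 113, 3 of 164, 8 of 136 and 3 of 135 in these 5 outside intervals. At the outer limit of the set, the 30 sites in its last 200 bp by listed distance had a median of 0.43 points and no call, and the 11 sites in the next 200 bp, just beyond it, had a median of -1.04 points and no call.

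**Figure D2:**
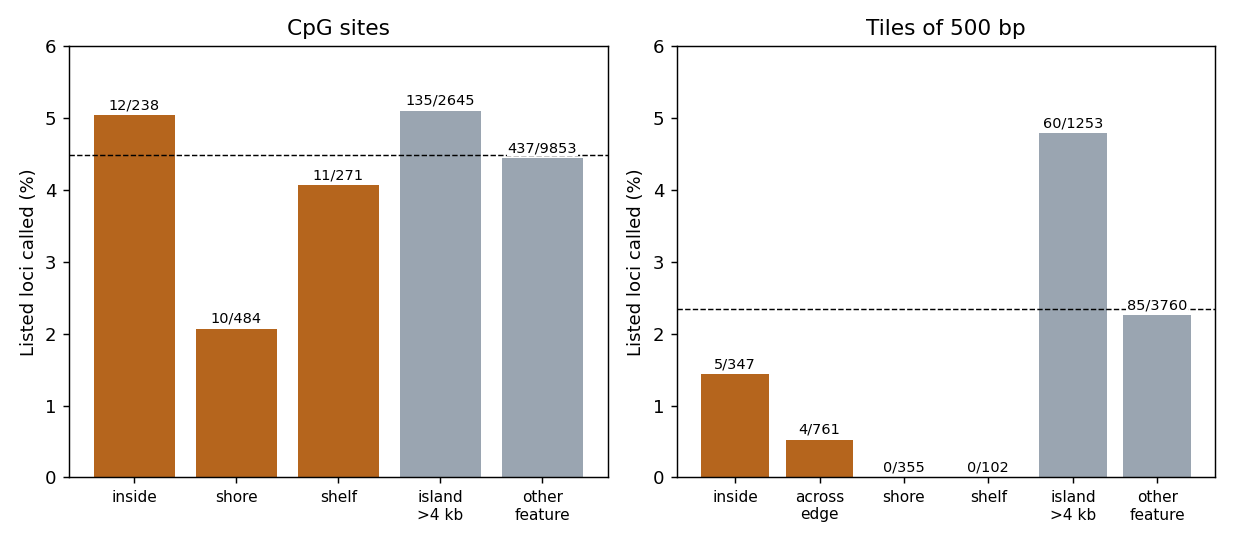
Share of listed autosomal loci that were called, in percent, for sites (left) and tiles (right), with the called and listed numbers above each bar. Brown bars are the island-edge loci by where they lie, grey bars are loci whose closest feature is an island beyond 4000 bp or another feature, and the dashed line is the share of all autosomal loci, 4.48% for sites and 2.34% for tiles. No tile in a shore or a shelf was called.

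The lowest values stood at single sites in island flanks, each at a different island. The lowest was -48.2 points (q = 1.21e-12) by the authors' deposited table, at position 3054044 of chromosome 14, in a shore 1257 bp before an island at 3055301 to 3056787. No gene was named in the site table within 50000 bp of this island, and no other site was listed within 1000 bp. A shore site on chromosome 19 (position 6130672) stood at -27.5 points (q = 0.000674) by the authors' deposited table, 555 bp from an island that overlaps an annotated intron of phosphatidylcholine transfer protein-like. Proteins of that name move phosphatidylcholine between membranes. On chromosome 9 the site at position 34370142, 200 bp from an island, had -26.2 points (q = 0.00401) by the authors' deposited table. The closest gene named in the site table was dermatan sulfate epimerase, which modifies the sugar chains of proteoglycans, 46371 bp from the island.

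Shelf sites outside chromosome 21 were also among the negative calls. A site of chromosome 5 (position 42189611), 3654 bp from an island that overlaps an annotated intron of copine 8, had -25.0 points (q = 0.00674) by the authors' deposited table. Copines are proteins that bind phospholipid when calcium is present. On chromosome 8 the site at position 111775270, 2516 bp from its island, had -20.2 points (q = 0.0121) by the authors' deposited table, and the one other listed site of that island had -8.64 points. A site of chromosome 6 (position 116732058), 2479 bp from its island, had -13.1 points (q = 0.00593) by the authors' deposited table. Neither island had a named gene within 50000 bp.

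Outside chromosome 21, called sites inside islands were 2. One was at position 27006533 of chromosome 25, 6 bp from the end of its island, with -19.4 points (q = 0.0167) by the authors' deposited table. That island lies 2367 bp from an annotated 5′ untranslated region of F-box and leucine rich repeat protein 19, a protein known in mouse to bind CpG islands that carry no methylation. The other 5 sites of the island ran from -11.5 to 0.13 points, and none was called. The other was at position 5566871 of chromosome 29, with -15.1 points (q = 0.0061) by the authors' deposited table, in an island with 17 listed sites whose other values ran from -9.25 to 4.37 points. Its closest gene, 9529 bp away, was ENSBTAG00000049159, which has no full name in the tables. A shore site of chromosome 22 (position 28807747) with -17.7 points (q = 0.00737) by the authors' deposited table had no other listed site within 1000 bp.

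All 7 positive calls lay outside islands. The highest was 20.9 points (q = 0.0103) by the authors' deposited table, at position 13245749 of chromosome 25, in a shore 948 bp from its island, with no named gene within 50000 bp. A shelf site of chromosome 11 (position 10148967) stood at 20.3 points (q = 0.0452) by the authors' deposited table, 2504 bp from its island. The closest named gene there, 32450 bp from the island, was DEAQ-box RNA dependent ATPase 1, of the helicase family of RNA-handling enzymes. The q of this site was the highest of the 33 called sites.

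On chromosome 7 there were 2 positive shore sites beside 2 neighbouring islands. The site at position 52495156, 214 bp from its island, had 20.2 points (q = 0.0369), and the one at position 52449722, 69 bp from its island, had 10.4 points (q = 0.0148), both in the authors' deposited table. Both islands have ENSBTAG00000053294, a gene with no full name in the tables, as the closest gene in the site table, at 5258 and 38145 bp. A further site next to the second, at position 52449738, had 6.62 points (q = 0.179) by the authors' deposited table.

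The remaining positive calls were a shelf site of chromosome 9, a shore site of chromosome 24 and a shelf site of chromosome 21. In the authors' deposited table the first, at position 60816926, had 19.9 points (q = 0.00803), and the one other listed site of its island had -1.46 points. The site of chromosome 24, at position 3955156 and 908 bp from its island, had 13.6 points (q = 0.000659) by the authors' deposited table, while the other 3 sites of the island ran from -6.34 to 0.03 points. The third, at position 413108 of chromosome 21, had 11.3 points (q = 0.0284) by the authors' deposited table, and the opposite strand of the same CpG had -11.8 points (q = 0.148). The closest gene, 15016 bp from that island, was immunoglobulin heavy variable 4-59, a segment of antibody genes.

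**Figure D3:**
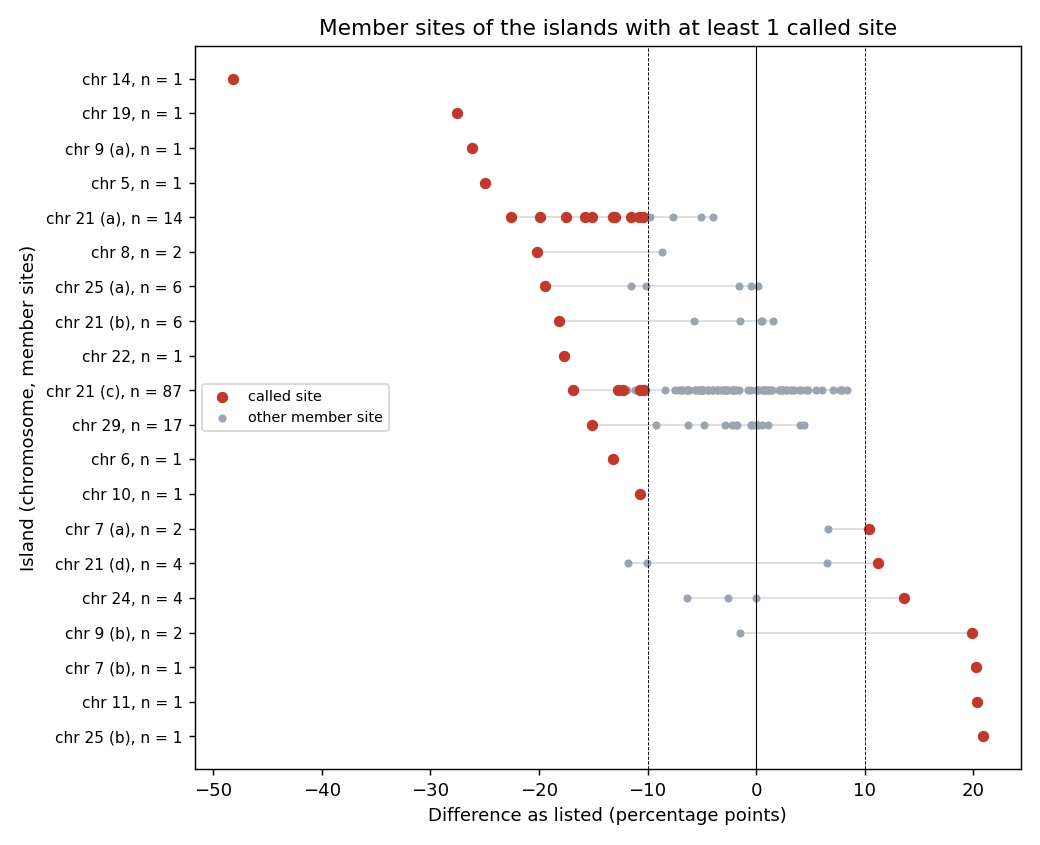
Authors' difference in percentage points (horizontal axis) at every island-edge site of the 20 islands with a called site, one island per row, with its chromosome and its number of listed sites. Red points are called, grey points are the other sites, and letters tell apart islands of 1 chromosome. Among islands with more than 1 listed site, only 1 of chromosome 21 has most of them called, and 10 islands have a single listed site.

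Calls with another call close by were found at 2 islands of chromosome 21. The 33 called sites fell at 20 islands, of which 18 had 1 call each and 2 had 10 and 5. At 10 of the 33, no other site of the table was listed within 1000 bp. Among the 23 with a neighbour that close, 15 had another called site there, all at the islands with several calls. Of the 20 islands 13 had a gene named in the site table within 50000 bp. Islands with a call had a median length of 938 bp and a median observed to expected ratio of 0.805, against 831 bp and 0.860 for islands with no call.

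Chromosome 21 held 259 of the 993 sites (26.1%) and 17 of the 33 calls. How many of all autosomal sites and calls lay on this chromosome was not counted, so this concentration cannot be called particular to island edges. A stretch from position 32902968 to 33028975, part of a larger cluster of listed loci there, held 237 of those sites at 6 islands, and 16 of them were called, all negative. The median over these 237 sites was -1.49 points, and 68.2% of the differences other than 0 were negative. Without chromosome 21, calls numbered 16 of 734 sites (2.18%), made up of 10 negative and 6 positive ones, around a median of 0 points. The sites of the set lay on 23 autosomes, and on the 22 other than chromosome 21 the number of calls ran from 0 to 2.

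In 1 island of this stretch most of the listed sites were called. The island, at positions 33028755 to 33029874, had 14 listed sites at 10 CpGs, all between positions 33028898 and 33028975, a span of 78 bp well inside the island. All 14 were negative, and 10 were called, 6 on the plus strand and 4 on the minus strand. The authors' deposited table gives the lowest as -22.6 points (q = 0.000209) at position 33028975, and the smallest q was 7.44e-06, at position 33028954 with -19.9 points. The 4 sites that were not called had -4.00, -5.03, -7.67 and -9.73 points in the authors' deposited table. So the values of this short span shared their sign at every listed site and ranged from -22.6 to -4.00 points. The closest gene named in the site table was ENSBTAG00000024311, 20602 bp from the island, with no full name.

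**Figure D4:**
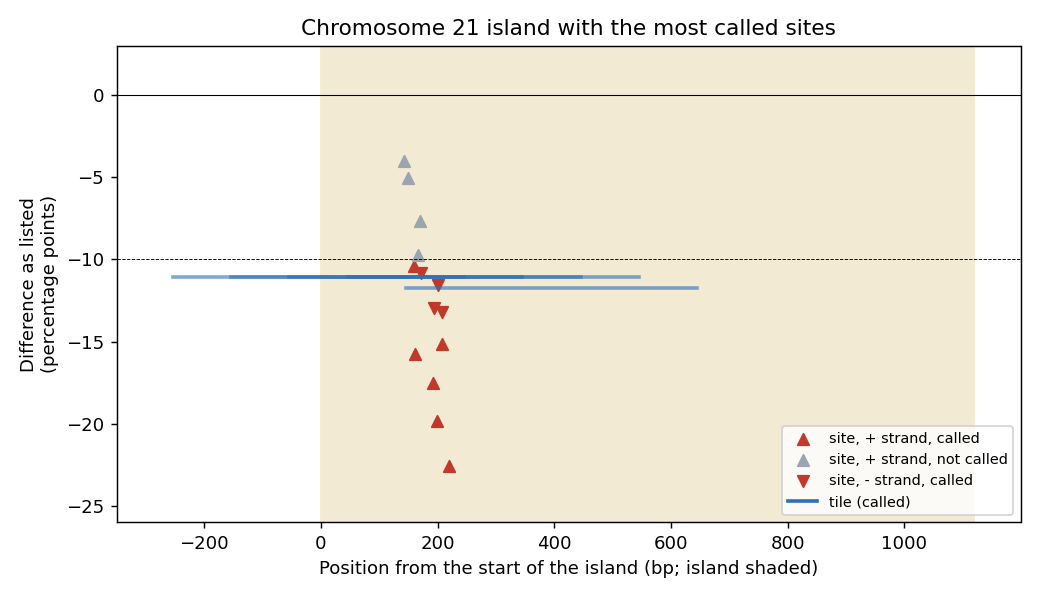
Authors' difference in percentage points (vertical axis) at the sites and tiles of the chromosome 21 island with the most called sites, against the position in bp from the start of the island (horizontal axis, island shaded). Triangles are sites, pointing up for the plus strand and down for the minus strand, red where called, and blue lines are the 5 tiles, drawn over their 500 bp. All 14 sites lie between 143 and 220 bp from the island start and all values are negative.

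The neighbouring islands of chromosome 21 had many listed sites but mixed values. The island at 32992916 to 32993869 had 87 sites, the most of any, 20 in its shore and 67 in its shelf, all on the side after the island. Of these, 5 were called, and their values ran from -16.8 points (q = 8.18e-05, position 32995538) to -10.3 points (q = 0.0173, position 32997463) by the authors' deposited table. Over the 87 sites the differences ran from -16.8 to 8.40 points with a median of -2.26. A shore site beside the island at 32894042 to 32901273 (position 32902968) had -18.1 points (q = 0.0102) by the authors' deposited table, and the other 5 sites of that island ran from -5.72 to 1.53 points. The island at 33020005 to 33021148 had 52 sites, 42 of them inside, with values from -8.59 to 6.41 points and no call. The island at 32918410 to 32919207 had 41 sites in its shore and shelf, from -5.30 to 5.08 points, also with no call. The island at 33023989 to 33026059 had 37 sites, 31 of them inside, from -10.4 to 4.44 points, again with no call.

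Both strands of a CpG were listed for 88 of the 905 CpGs of the island-edge set, 82 of them on chromosome 21. Of the 86 whose differences were other than 0 on both strands, 63 (73.3%) had the same sign, and the median gap between the strands was 2.43 points. A call on at least 1 strand was found at 9 CpGs, and the sign was shared at 8 of these. Both strands were called at 3 CpGs, which all lie in the chromosome 21 island described above. At the CpG of position 33028954 the plus strand had -19.9 points and the minus strand -11.5 points in the authors' deposited table. Beside the island at 32992916, by contrast, the 4 CpGs with a call and both strands listed had 1 strand called each, with the other strand between -5.08 and -0.71 points.

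Large differences were rarer among the tiles of the island-edge set, and every one of them touched an island. Calls by the authors' deposited table numbered 9 of the 1565 tiles (0.575%), against 2.34% of all autosomal tiles listed. Of these, 8 were negative and 1 positive, where 2.17% and 0.167% of autosomal tiles were called. They overlap into 4 regions at 4 islands, 3 negative and 1 positive, and no tile reached 20 points, against 0.122% of autosomal tiles. Without chromosome 21, 4 of 1464 tiles were called. Inside islands 5 of 347 tiles were called, and across an edge 4 of 761. None of the 457 tiles that lay wholly in a shore or a shelf was called, by the same rule on the authors' q and difference. Their values ran from -8.99 to 6.65 points, and 304 of them had q below 0.05.

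Smaller differences with a small q were common among the tiles. The authors' deposited table lists q below 0.05 for 961 tiles (61.4%), against 71.0% of autosomal tiles, with a median size of 1.17 points, and 92 of them had a p-value of 0.05 or more. The listed q lay below the p of the same tile for 71.9% of the 1565. The median over all 1565 tiles was -0.19 points, with quartiles of -1.01 and 0.31 points, against -0.84 points over autosomal tiles. Of these tiles 59.7% were negative, against 70.3% on autosomes.

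The size of the tile differences was smallest where the tile touched an island. The median size was 0.479 points inside islands, 0.464 points across an edge, 1.06 points in shores and 2.05 points in shelves. These tiles lay at 157, 316, 88 and 15 islands in that order, so the shelf value rests on few islands. Many of the tiles overlap, some lie near chromosome starts, and the differences between places were not tested. Autosomal tiles closest to an island more than 4000 bp away had a median size of 2.76 points, and 4.79% of them were called. The median signed difference was -0.11 points inside, -0.12 points across an edge, -0.49 points in shores and -1.01 points in shelves. At the outer limit of the set, the 5 tiles in its last 200 bp by listed distance had a median of 0.44 points, and the 7 in the next 200 bp had -2.37 points, with no call in either.

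The lowest tiles lay in an island of chromosome 9 that also had a called site. In the authors' deposited table the tile at positions 34370501 to 34371000 had -18.9 points (q = 3.92e-37), and the tile at 34370401 to 34370900, which overlaps it, had -16.4 points. Both lie wholly inside the island at 34370342 to 34371082, whose observed to expected ratio of 0.61 was the lowest of the islands with tiles. The called shore site at position 34370142 lies outside both tiles, 200 bp before the island. Values of the same sign were thus listed on either side of this island's edge, from different CpGs.

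On chromosome 21 the 5 called tiles all lay at the island with the most called sites. The authors' deposited table gives the same -11.1 points (q = 5.1e-45) for 4 of them, and the fifth, at 33028901 to 33029400, had -11.7 points (q = 1e-45). Tiles with equal values at steps of 100 bp can hold the same CpGs, so these 5 are not separate measurements. The mean of the listed sites in the first 4 was -12.6 points. Tiles of neighbouring islands were not called, and their values differed between islands. They ran from -8.24 to -5.22 points at the 7 tiles of the island at 33001944 to 33003266. At the island at 32992916 the 25 tiles ran from -6.15 to 3.81 points, with a median of -1.63. At the island at 32918410 the 20 tiles ran from -1.77 to 1.88 points, with a median of -0.30. At the island at 33023989 to 33026059 the 18 tiles had a median of -3.29, and 8 of them, with q below 0.05, ran from -8.60 to -5.28 points.

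The other called tiles were single tiles at 2 islands. Deep inside a long island of chromosome 25, at 35727589 to 35736823, the tile at 35734001 to 35734500 had -10.8 points (q = 2.41e-135) by the authors' deposited table, and the other 4 listed tiles of that island ran from -8.88 to -7.61 points. The listed distance of this tile was 2822 bp, which would place it in a shelf, but it lies wholly inside the island. The positive one, across the start of an island of chromosome 19 at 13425351 to 13427152, covered positions 13425201 to 13425700 and had 11.2 points (q = 1.42e-30) by the authors' deposited table. The other 4 tiles there ran from 5.79 to 9.95 points, and the 2 listed sites inside the called tile had a mean of 9.34 points, with neither called. No gene was named in the tile table within 50000 bp of either island, nor of the chromosome 9 island.

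At a limit of 5 points, with q below 0.05, 64 tiles at 17 islands were past the threshold, 54 of them negative. The share of all autosomal tiles past this limit was not counted, so these numbers cannot be called high or low. The most, 9, belonged to an island at positions 12174 to 12985 of chromosome 25, with values from -8.99 to -5.18 points in the authors' deposited table. This island had 42 tiles, the second most of all, and their median was -3.53 points with every value negative, up to -0.52 points. The island with the most tiles, at 184347 to 184782 of chromosome 16, had 50 with values from -4.21 to 2.23 points. An island at 24757 to 25993 of chromosome 29 had 41, from -4.25 to 2.93 points. Of the tiles in shores and shelves, 18 of 457 passed the limit of 5 points, 15 of them negative, and 10 of the 18 were on chromosome 25.

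Genes of the developmental lists were few beside these islands. Within 50000 bp of an island with tiles, the tile table named 139 genes, of which 125 have a full name, and 1 of the 139, ENSBTAG00000024311, was near an island with a called tile. Genes taken by words for transcription factors of development, such as homeobox, made up 5 of the 125, and none was near a called tile. The role of each was not checked. By the authors' deposited table the 2 tiles at engrailed homeobox 1, a factor of midbrain and limb patterning, had -0.70 and 0.41 points. The 2 tiles at NK2 homeobox 1, a factor of thyroid, lung and forebrain development, had 0.09 and 0.31 points, also in the authors' deposited table. Single tiles near Zic family member 1, orthodenticle homeobox 2 and homeobox containing 1 stood at 0.27, 0.21 and 0.02 points in the authors' deposited table.

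Beyond these genes the gene lists found few members. Among the tiles, NOP2/Sun RNA methyltransferase 6 was the one gene taken by words for chromatin, although it methylates RNA, and its tile stood at 0.78 points in the authors' deposited table. No gene of embryo signalling or of sperm and testis was named near an island with tiles. Near islands with sites the site table named 121 genes, 96 with a full name, and 18 of the 121 lay near an island with a called site. Of all islands with sites, 20 of 407 had a call. An island can have several genes nearby, so the share of genes and the share of islands are not alike. Of the 4 lists, only that of sperm and testis had a member there, spermatogenic leucine zipper 1, a factor of sperm formation, whose island had 1 site at -4.76 points, not called, in the authors' deposited table.

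The tables covered largely different islands. The sites of the set lay on 23 autosomes and the tiles on 26. Chromosomes 2, 3 and 4 held 77, 133 and 74 of the tiles but none of the sites. Of the islands with sites 15.0%, and of those with tiles 13.7%, were in both tables, which makes 61 islands. At the 48 of these whose medians were other than 0 in both tables, the medians had the same sign at 29. A tile and the sites inside it come from the same samples and share reads. Of 262 tiles with at least 1 listed island-edge site inside, 189 (72.1%) shared the sign of those sites' mean. Of the 20 islands with a called site 5 had a listed tile, and of the 4 with a called tile 3 had a listed site. Calls in both tables were found at 2 islands, that of chromosome 9 and that of chromosome 21 with 10 called sites.

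**Figure D5:**
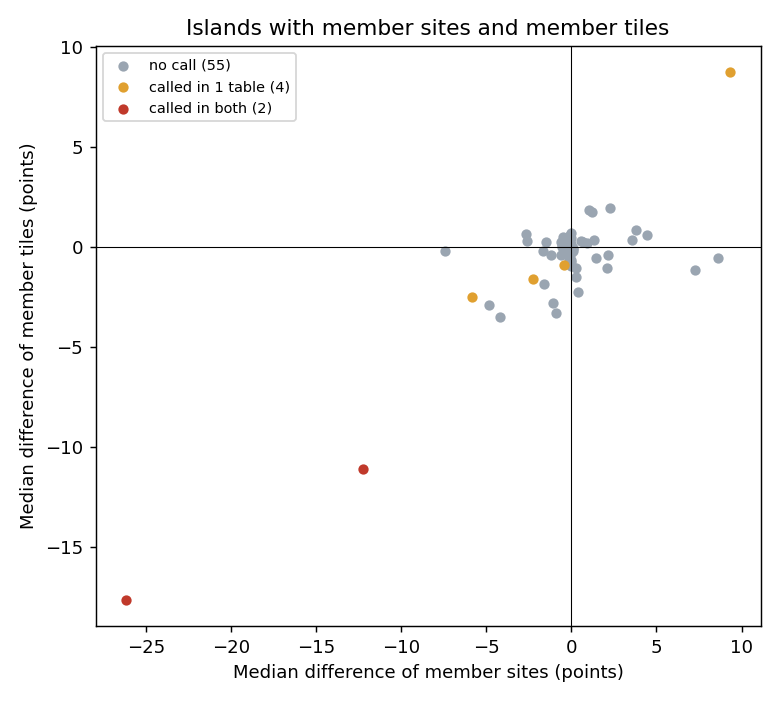
Median authors' difference of the sites (horizontal axis) and of the tiles (vertical axis), in percentage points, at the 61 islands with island-edge loci in both tables, one point per island. Red points are the 2 islands called in both tables, orange points the 4 called in 1 table, and grey points the rest. The red points lie at -26.2 and -17.7 and at -12.2 and -11.1 points for sites and tiles, away from the other islands, most of which lie close to 0.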

How the data were processed

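Sperm DNA of 12 bulls was profiled by enzymatic methylation sequencing. Trimmomatic, Bismark, methylKit and the cattle build ARS-UCD1.2 are named in the submitters' processing notes, and versions, settings and the test used are not given in the sources used here. The authors deposited, for each site or tile, the difference in methylation (percentage points) with its p-value and q-value, under the column names of methylKit, with the closest annotated feature. No read depth is given in these tables, so depth is unknown and no interval based on depth was computed.

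Python 3.11.15 with pandas 2.3.3 was used. Island-edge loci were taken by chromosome (1 to 29), feature type and listed distance, and placed by comparing their coordinates with those of the island. Calls used q below 0.05 and at least 10 points. Counting steps were checked on simulated tables. Named loci are, per table, up to 12 negative and 12 positive called loci with the largest differences, 1 per island, the islands with the most called or listed loci, and list members; other loci named here were chosen after their values were seen. The set and the lists were chosen with earlier results of these data known. Genes are those the same table names within 50000 bp of the island, so genes beside no listed locus are missed. Some chromosomes were not analysed here. Sequences are not shown, since no genome of this build was used.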

Additional observations from a re-analysis of the deposited data

How the results depend on the processing

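Of 48 alternative counts, shares and medians, 31 stayed within 1.5 times the count, or within the 95% interval of the share or median. Counts have no direction to change. Negative calls stayed the majority in every share, and no median was positive, though most alternative site medians were 0. The negative share of called sites, 78.8% as reported, was 65.0% with 1 vote per island and 62.5% without chromosome 21. The intervals treat loci as independent, which neighbouring sites and overlapping tiles are not, so staying within them is no measure of stability. Called sites, 33 as reported, numbered 51 at 5 points and 9 at 20 points. No share over all autosomal loci was counted at 5 points. Called tiles, 9 as reported, numbered 64 at 5 points and 0 at 20 points, and 4 as merged regions or without the island with the most calls. The tile median, -0.19 points, was -0.034 with 1 value per island and -1.02 for listed distances beyond 2000 bp. Further alternatives were chosen after seeing the data. Outside islands by coordinates there were 21 called sites and 0 called tiles, and the tile median was -0.58. Inside or across an edge there were 12 called sites, 100% of them negative, and the medians were -0.53 for sites and -0.12 for tiles. Without chromosome 21 there were 16 called sites and 4 called tiles. These counts come from fewer loci or another limit, and the share called changed as well. It was 3.32% for all 993 sites, 2.18% without chromosome 21, 2.78% outside islands and 5.04% inside. With p-values adjusted by the Benjamini-Hochberg method over all listed loci, 33 sites and 9 tiles were called. The sites were not all the same ones. The called site at position 33028914 of chromosome 21 had 0.0646 after this adjustment and was no longer called. No sample could be left out, since the tables hold no sample values. The q-values come from a test whose allowance for variation between bulls is not stated, and unknown depth limits how far a single site can be read.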

Other observations

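Tiles near chromosome starts had larger differences than the rest, both in the island-edge set and over all autosomal tiles. The comparison was made after the values were seen and was not tested. In the first 1 Mb of the autosomes lay 331 of the 1565 tiles (21.2%), at 21 islands, with a median size of 2.07 points and a median of -1.45 points. The other tiles had a median size of 0.491 points and a median of -0.09 points. Over all autosomal tiles the median size was 2.15 points in the first 1 Mb and 0.987 points elsewhere. Their medians were -1.65 and -0.51 points. All 9 called tiles, which form 4 regions, lay beyond the first 1 Mb. Of the 154 called autosomal tiles, 14 lay in the first 1 Mb, which held 30.8% of autosomal tiles. For sites the same contrast was smaller, with 104 of 993 sites in the first 1 Mb, a median size of 2.90 points there and 2.22 points elsewhere, and 1 of the 33 calls. Over all autosomal sites the median sizes were 4.17 and 2.61 points. The first 1 Mb held 13.5% of autosomal sites and 107 of their 605 calls.

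Island-edge tiles on the 2 sides of an island also differed in their listed values. Among tiles outside islands, 286 lay after the island in coordinate order, with a median of -1.04 points and 71.3% negative, and 171 lay before it, with a median of -0.08 points and 55.0% negative. These tiles lay at 54 and 48 islands, and many overlap or share an island, so they are not separate measurements. The contrast was not tested. Sites did not show this, with medians of 0 points on either side. The islands' orientation relative to genes was not examined.

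Around the 2 called islands of chromosome 7, 7 island-edge sites at 5 islands were listed between positions 52422164 and 52495156, of which 5 were positive and 2 negative, with values from -3.47 to 20.2 points. One of them, at position 52425514, stood at 16.6 points with q = 0.164 in the authors' deposited table and was not called.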
